A study of Mus musculus with 4 samples.

Results

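The partly methylated CpG sites of WT ES cells in serum were the positions listed once in every table with at least 20 reads in the WT serum library, at least 10 reads in each of the other 3 libraries, and a methylated share of 0.3 to 0.7 in WT serum. They numbered 24023 of 337978 sites with that coverage. A further 234016 sites lay under 0.3 and 79939 over 0.7 in WT serum. CpG methylation was measured by reduced representation bisulfite sequencing (RRBS-seq), in which the enzyme MspI cuts DNA at CCGG and bisulfite converts unmethylated cytosines. The 4 libraries were Chr4-cl WT cells in serum, Chr4-cl KO cells in serum, and both genotypes after 1 week in 2i + Vitamin C. Chr4-cl KO ES cells lack the KRAB-ZFP gene cluster on chromosome 4, both kinds of cell come from B6;129 mice that carry a cre/ERT allele at Gt(ROSA)26Sor, and serum medium held FCS and LIF. Each condition had 1 library, so no difference has a replicate check, and the genotype cannot be told apart from the cell clone.

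A CpG is methylated or unmethylated on each DNA molecule, so a partial level is an average over alleles and cells. At imprinted control regions the alleles of a cell differ by parent of origin, and KRAB-ZFPs such as ZFP57 recruit KAP1 there to keep the methylated allele methylated. The 2i inhibitors together with vitamin C, a cofactor of the TET enzymes, lower methylation across the genome of ES cells. In these tables a level between the extremes cannot be assigned to alleles or to cells.

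The sequences of 7 stretches of neighbouring partly methylated sites are shown because the results below turn on them. Airn had little methylation in the KO line, Kcnq1 and Gnas kept part of it, Zfp787, which is not at a gene of the imprinted list used here, was low in KO serum, Ptger1 and the germline gene Slc25a31 fell in 2i + Vitamin C, and the Cntn4 stretch rose in KO 2i + Vitamin C. They are mm9, plus strand, 5′ to 3′, and capitals mark the partly methylated CpG sites. For Gnas and Zfp787 the stretch is the part of the cluster, at most 300 bases long, with the most such sites.
Airn, chr17:12935102-12935234: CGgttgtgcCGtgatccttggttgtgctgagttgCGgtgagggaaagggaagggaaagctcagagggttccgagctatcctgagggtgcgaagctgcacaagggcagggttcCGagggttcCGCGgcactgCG
Kcnq1, chr7:150481374-150481516: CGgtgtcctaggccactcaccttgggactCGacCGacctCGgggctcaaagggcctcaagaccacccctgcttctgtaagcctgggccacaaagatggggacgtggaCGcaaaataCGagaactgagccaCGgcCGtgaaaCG
Gnas, chr2:174124993-174125205: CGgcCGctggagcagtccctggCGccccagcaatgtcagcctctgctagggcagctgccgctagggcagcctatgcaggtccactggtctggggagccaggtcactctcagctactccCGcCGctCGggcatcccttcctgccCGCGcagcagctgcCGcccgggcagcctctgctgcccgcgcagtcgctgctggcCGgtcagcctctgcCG
Zfp787, chr7:6084028-6084319: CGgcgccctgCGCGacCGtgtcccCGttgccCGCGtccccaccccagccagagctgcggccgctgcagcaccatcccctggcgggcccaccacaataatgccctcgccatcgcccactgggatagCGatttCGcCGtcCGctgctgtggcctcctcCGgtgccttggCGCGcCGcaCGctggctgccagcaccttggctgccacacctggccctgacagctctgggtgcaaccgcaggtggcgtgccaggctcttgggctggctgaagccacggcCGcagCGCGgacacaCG
Ptger1, chr8:86192383-86192545: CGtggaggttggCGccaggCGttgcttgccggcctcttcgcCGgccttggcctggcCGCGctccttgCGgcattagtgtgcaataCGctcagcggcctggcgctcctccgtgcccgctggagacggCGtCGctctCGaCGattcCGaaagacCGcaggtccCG
Slc25a31, chr3:40512994-40513281: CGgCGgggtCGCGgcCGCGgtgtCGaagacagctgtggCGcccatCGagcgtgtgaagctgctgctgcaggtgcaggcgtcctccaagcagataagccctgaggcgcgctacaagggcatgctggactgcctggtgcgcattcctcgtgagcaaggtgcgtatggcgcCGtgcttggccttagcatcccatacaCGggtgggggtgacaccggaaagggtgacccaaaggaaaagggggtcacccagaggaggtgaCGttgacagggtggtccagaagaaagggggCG
Cntn4, chr6:105648591-105648623: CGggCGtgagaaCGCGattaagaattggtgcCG

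The depth summed over CpG sites was 70134758 in WT serum, 88376738 in KO serum, 90649194 in WT 2i + Vitamin C and 42672691 in KO 2i + Vitamin C. A read over several CpG sites counts at each of them. At the partly methylated sites the median depth was 52, 60, 96 and 43 reads in that order. Within the span of 19 Chr4-cl KRAB-ZFP genes, the summed depth fell from 83433 in WT to 815 in KO cells in serum and from 102482 to 1124 in 2i + Vitamin C. The tables of WT serum and KO 2i + Vitamin C each consisted of 2 tables placed one after the other, and 9 of the sites used came from a second table, all in KO 2i + Vitamin C.

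The partly methylated sites had a mean methylation of 51.6% in WT serum (SD 11.99 over sites), 66.0% in KO serum (SD 17.2), 13.7% in WT 2i + Vitamin C (SD 10.9) and 12.5% in KO 2i + Vitamin C (SD 11.6). The sites were chosen by their methylated share in WT serum, so that value and every difference from it are set in part by the choice and are given as a description. In KO serum 12023 of the sites (50.05%) stayed between 30% and 70%, 11237 (46.8%) lay over 70% and 763 lay under 30%. In 2i + Vitamin C 91.8% of the sites lay under 30% in WT, as did 91.6% in KO cells, and 2720 sites had 0 methylated reads in KO cells, at depths of 10 to 175 reads, where a count of 0 allows up to 30% and 1.71%. Sites over 0.7 in WT serum kept a mean in 2i + Vitamin C of 46.8% in WT and 42.5% in KO cells.

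**Figure D1:**
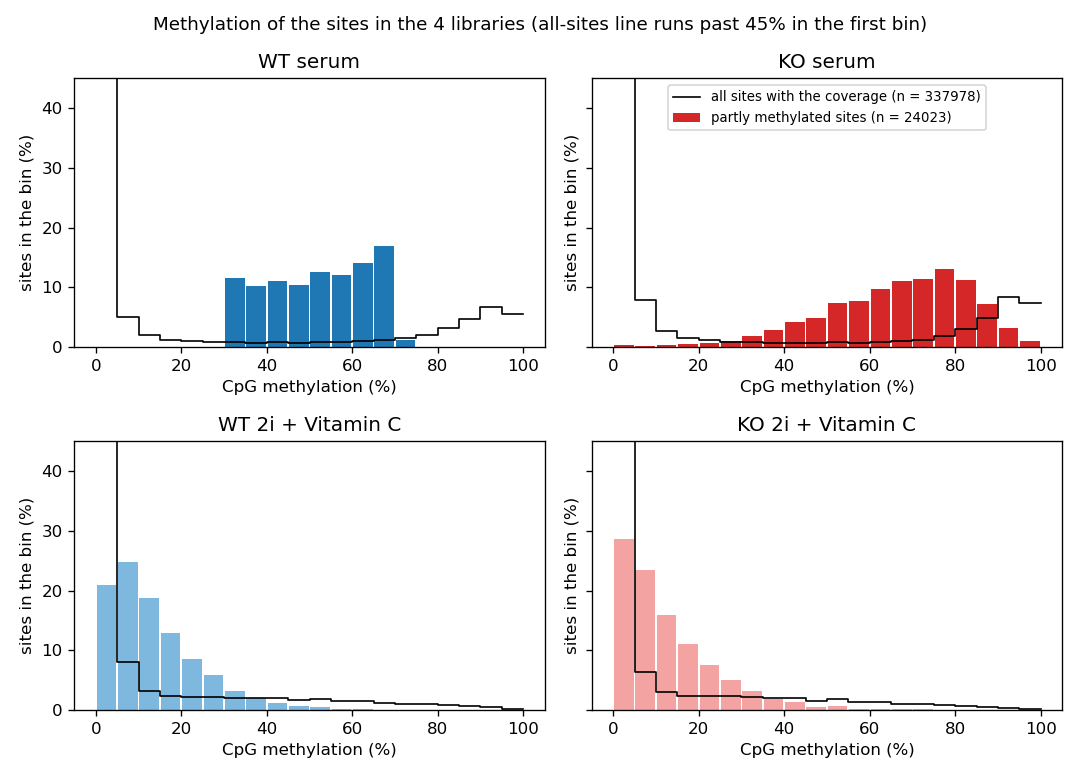
Share of sites (%) in 5-point bins of CpG methylation (%), 1 panel per library; bars are the 24023 partly methylated sites and the line all 337978 sites. In 2i + Vitamin C the bars of both genotypes pile up under 30%, and in KO serum they peak above the WT serum band. Sites at exactly 70% fall in the bin that starts at 70.

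From serum to 2i + Vitamin C, the mean of KO cells fell by 53.5 points at these sites, from 66.0% to 12.5%. The methylation of 23826 of the sites was lower in 2i + Vitamin C. Sites were called at a difference of at least 20 points and an adjusted p, from Fisher's exact test of the methylated against the unmethylated reads, under 0.05 over all sites. By this rule, 21902 sites (91.2%) were lower, against 29.6% of all sites, and 20 were higher (0.0833%), against 0.0243% of all sites. Of the sites over 0.7 in WT serum 84.1% were called lower, and of those under 0.3 4.63%. Each test compares the reads of 2 libraries and not the conditions. In WT cells, whose serum library chose the sites, the mean went from 51.6% to 13.7%, which is given as a description.

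Between the genotypes in 2i + Vitamin C, these sites differed little on average. WT cells had a mean of 13.7% and KO cells one of 12.5%, and the mean difference, KO minus WT, was -1.17 points, against -1.75 points over all sites. By the same rule 152 sites (0.633%) were lower in KO cells, against 0.464% of all sites, and 98 (0.408%) were higher, against 0.103% of all sites. At an unadjusted p under 0.05 there were 2539 of the 24023 sites, and 26263 of all 337978. Across the partly methylated sites the levels of both genotypes in 2i + Vitamin C had a Pearson correlation of 0.677 (n = 24023 sites that share libraries). In serum, given as a description, the KO mean was higher by 14.4 points, against 3.07 points over all sites, and 21059 of the sites were higher.

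The most frequent course was partial methylation in both serum libraries and under 30% in both 2i + Vitamin C libraries, with 11098 sites (46.2%). Next came 9217 sites (38.4%) that lay over 70% in KO serum and under 30% in 2i + Vitamin C in both genotypes. Only 249 sites (1.04%) lay between 30% and 70% in all 4 libraries. Of these, 30.1% sat in a 31-base sequence that occurs more than once in mm9, 44.2% were intergenic and 19 lay at genes of the imprinted list.

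The partly methylated sites lay mostly outside promoters. Within 1 kb of a transcript start were 17.7% of them, against 80.5% of the sites under 0.3 and 8.75% of those over 0.7. Exons held 22.6%, introns 29.1% and intergenic sequence 30.7%. Of the covered sites in each place, 15.9% in exons, 16.2% in introns, 12.1% between genes and 2.13% in promoters were partly methylated. In promoters with CpG-dense sequence (observed over expected CpG of at least 0.6 and GC of at least 55% in 200 bp) the share was 0.592%. The median distance to a transcript start was 7294 bp, between the 225 bp of sites under 0.3 and the 15221 bp of sites over 0.7.

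**Figure D2:**
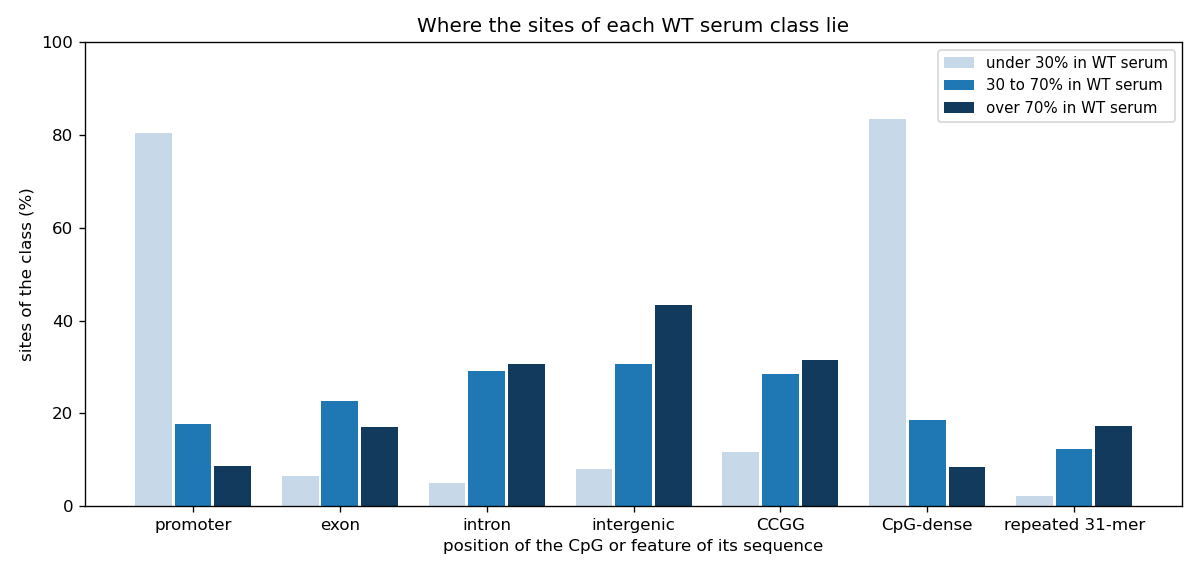
Share of the sites (%) of each WT serum class by position and by sequence feature; bars are the 3 classes. The partly methylated sites lie between the other classes in promoters (17.7%), introns and intergenic sequence, and above both in exons (22.6%).

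Local CpG density followed the same order. The median number of CpG in the 200 bp around a site was 7 for the partly methylated sites, 20 for sites under 0.3 and 6 for sites over 0.7. With 5 to 8 CpG in the window 16.1% of covered sites were partly methylated, and with 17 or more 0.448% were. The share of covered sites that were partly methylated ranged from 6.05% on chromosome 14 to 7.98% on chromosome 10 among autosomes, and was 6.32% on X. In CCGG lay 28.5% of these sites and 17.6% of all sites, with 11.7% of sites under 0.3 and 31.4% of sites over 0.7. A repeated 31-base sequence held 12.2% of the partly methylated sites and 6.53% of all sites, with 2.27% of sites under 0.3 and 17.3% of sites over 0.7.

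Neighbouring sites tended to share the state. With at least 1 other partly methylated site within 100 bp there were 15294 (63.7%), and 4328 had no covered site that near. The next covered site was also partly methylated in 66.6% of pairs 1 to 10 bp apart and in 51.2% of pairs over 100 and up to 200 bp apart. In KO serum, which the choice did not use, the median difference between the sites of a pair rose from 7.57 points to 11.8 points over these distances. Sites this near often lie on the same reads and are not independent. Isolated sites also occurred. Of sites with 2 or more neighbours, 412 had all of them over 80% and 225 had all of them under 20%. Of the latter 225, 78.2% lay between 30% and 70% in KO serum, against 23.5% of the 412. In WT serum the 225 averaged 37.4% and the 412 averaged 61.9%, so the latter started nearer to 70%.

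Chaining sites at most 200 bp apart gave 819 clusters of at least 5 partly methylated sites, with 5406 sites (22.5%) in all. The largest held 31 sites. Single sites made up 26.5% of the total. The median cluster spanned 169 bp, and in 406 clusters all covered sites were partly methylated. Of the clusters, 276 lay in exons, 217 between genes, 181 in promoters and 145 in introns.

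In KO serum 22 cluster means lay under 30%, 472 between 30% and 70% and 325 over 70%. In 2i + Vitamin C the KO mean was lower than the WT mean in 510 clusters and higher in 309, and differed by at least 20 points in 8 and 9 of them. Of the 9 that were higher, 8 had at least 50% of their sites in repeated 31-base sequence, and of the 8 that were lower, 2 did. Of all 819 clusters 149 did (18.2%). From serum to 2i + Vitamin C the KO mean was lower in 814 of the 819.

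**Figure D3:**
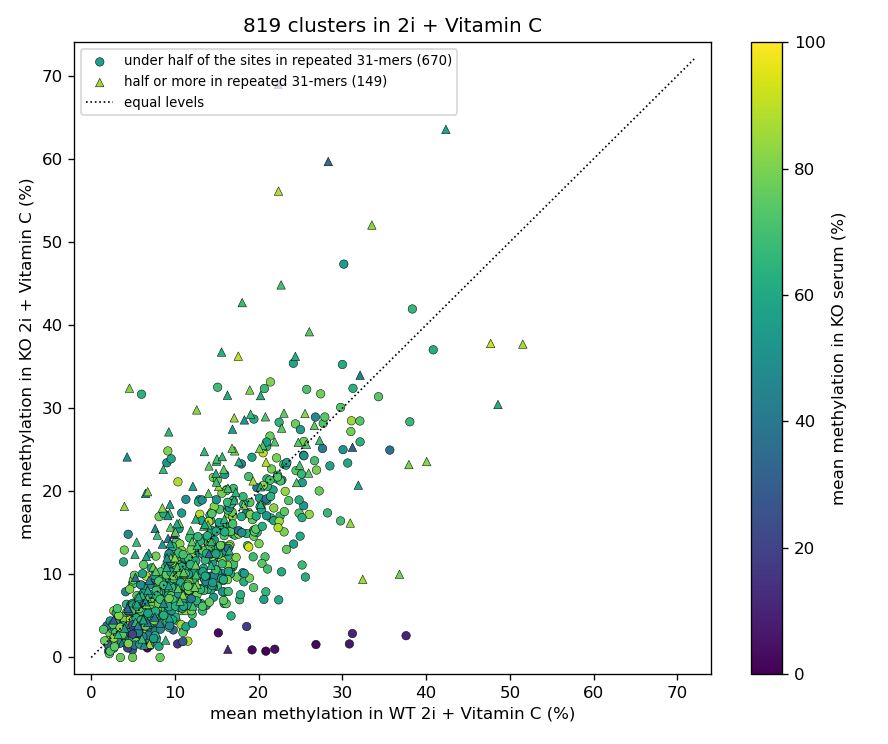
Mean methylation (%) of the 819 clusters in WT (x axis) and KO (y axis) 2i + Vitamin C, coloured by the mean in KO serum; triangles have at least 50% of their sites in repeated 31-base sequence, and the dotted line marks equal levels. Clusters far under the line are mostly dark (low in KO serum), and those furthest above it are mostly triangles.

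At genes of the imprinted list (42 genes, 36 of them with covered sites) 192 of 979 covered sites were partly methylated (19.6%), against 24023 of all 337978 covered sites. By the call rule, in 2i + Vitamin C the KO line was lower at 38 of the 192 (19.8%), against 0.464% of all sites, and higher at 2 (1.04%), against 0.103% of all sites. At the other 23831 partly methylated sites 114 were lower (0.478%) and 96 higher (0.403%). The list was chosen with earlier results of these data known. The 192 sites included 14 clusters with 140 sites, of which 7 had a KO serum mean of 10.6% or less and 7 of 37.3% or more.

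The first 7 clusters lay at Peg10, Impact, Plagl1, Grb10 and Airn. Airn, the non-coding RNA antisense to the growth factor receptor gene Igf2r, had 7 sites at chr17:12935102-12935234, shown above, 904 bp from its start. Their methylation ran from 40.2% to 44.9% in WT serum, from 3.25% to 8.14% in KO serum, from 28.5% to 33.3% in WT 2i + Vitamin C and from 0.922% to 3.85% in KO 2i + Vitamin C. In 2i + Vitamin C the KO and WT ranges did not overlap, and all 7 sites were called lower in KO 2i + Vitamin C (adjusted p from 1.88e-16 to 2.02e-08, Fisher's exact test, adjusted by Benjamini-Hochberg; 206 to 220 KO reads a site). A second Airn cluster of 6 sites had means of 53.5%, 10.4%, 31.2% and 2.88% in WT serum, KO serum, WT 2i + Vitamin C and KO 2i + Vitamin C, and 4 sites were called lower in KO 2i + Vitamin C.

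At Grb10, which encodes an adaptor of growth factor receptors, the cluster of 17 sites around the promoter had means of 52.6%, 4.16%, 21.9% and 0.991% in WT serum, KO serum, WT 2i + Vitamin C and KO 2i + Vitamin C. Only 2 of the 17 were called lower in KO than in WT 2i + Vitamin C, where the KO depth was a median of 17 reads a site. A nearby Grb10 cluster of 6 sites went from 37.6% in WT to 2.62% in KO 2i + Vitamin C, a difference of -35.0 points and the largest fall of the 819 clusters. The depth at this second cluster in KO 2i + Vitamin C was a median of 26 reads a site, and 5 of its 6 sites were called lower.

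Peg10, a gene derived from a retrotransposon and expressed from the paternal allele, had 10 sites with a mean of 57.8% in WT serum, 0.0% in KO serum, 20.9% in WT 2i + Vitamin C and 0.755% in KO 2i + Vitamin C. Each of the 10 sites had 0 methylated of 33 to 46 reads in KO serum, which allows up to 9.09% at the shallowest. Between the genotypes in 2i + Vitamin C, 6 of the 10 were called lower in KO cells. Impact, which encodes a regulator of the eIF2 kinase GCN2, had 14 sites with means of 42.8%, 1.96%, 26.8% and 1.55%, and all 14 were called lower in KO 2i + Vitamin C. Plagl1, which encodes a zinc finger transcription factor, had 5 sites with means of 45.2%, 2.00%, 19.2% and 0.909%. No Plagl1 site was called in 2i + Vitamin C, where its KO depth was a median of 22 reads. In KO cells these 7 clusters were low in serum already, and their mean changed from serum to 2i + Vitamin C by between -7.95 and 0.755 points.

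The other 7 imprinted clusters had a KO serum mean of 37.3% or more. Gnas, which encodes the alpha subunit of the stimulatory G protein, held the largest cluster of all. Its 31 sites at chr2:174124643-174125965, in an exon, had means of 46.3%, 46.7%, 26.8% and 28.9% in WT serum, KO serum, WT 2i + Vitamin C and KO 2i + Vitamin C. The KO levels ran from 3.85% to 43.0% in 2i + Vitamin C (SD 10.9, against 5.26 in WT), and 2 of the 31 were called higher. The median depth there was 46 reads a site in KO and 229 in WT cells, and the 3.85% rests on 26 reads. The part of depth in the wider KO spread was not tested. A second Gnas cluster had means of 54.5%, 66.0%, 38.4% and 41.9%.

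Nnat, which encodes the membrane proteolipid neuronatin, had 7 sites at means of 50.3%, 54.5%, 30.2% and 47.3% in the same order, and 9 further sites at 35.5%, 44.5%, 17.9% and 23.3%. None of these was called between the genotypes in 2i + Vitamin C, where the KO depth was a median of 30 reads at the first cluster. Mest had 5 sites at 56.6%, 61.8%, 40.8% and 37.0%, and Mcts2, a retrogene within H13, had 9 at 36.3%, 37.4%, 18.5% and 17.4%.

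Kcnq1, a potassium channel gene whose locus holds an imprinted antisense RNA, had 9 sites in an intron with 59.3% in WT serum, 37.3% in KO serum, 35.7% in WT 2i + Vitamin C and 24.9% in KO 2i + Vitamin C. The difference, KO minus WT, was -10.7 points in 2i + Vitamin C and no site was called (adjusted p of 0.761 or more, Fisher's exact test, adjusted by Benjamini-Hochberg, 44 to 49 KO reads a site). The motif TGCCGC, the ZFP57 binding core, occurred on either strand in the 300-base windows at 9 of the 14 imprinted clusters, at 145 of all 819 clusters (17.7%) and at 7 of the 22 clusters low in KO serum (31.8%). It occurred in 23.8% of 300-base windows on all covered sites and in 10.6% of those on the partly methylated sites.

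**Figure D4:**
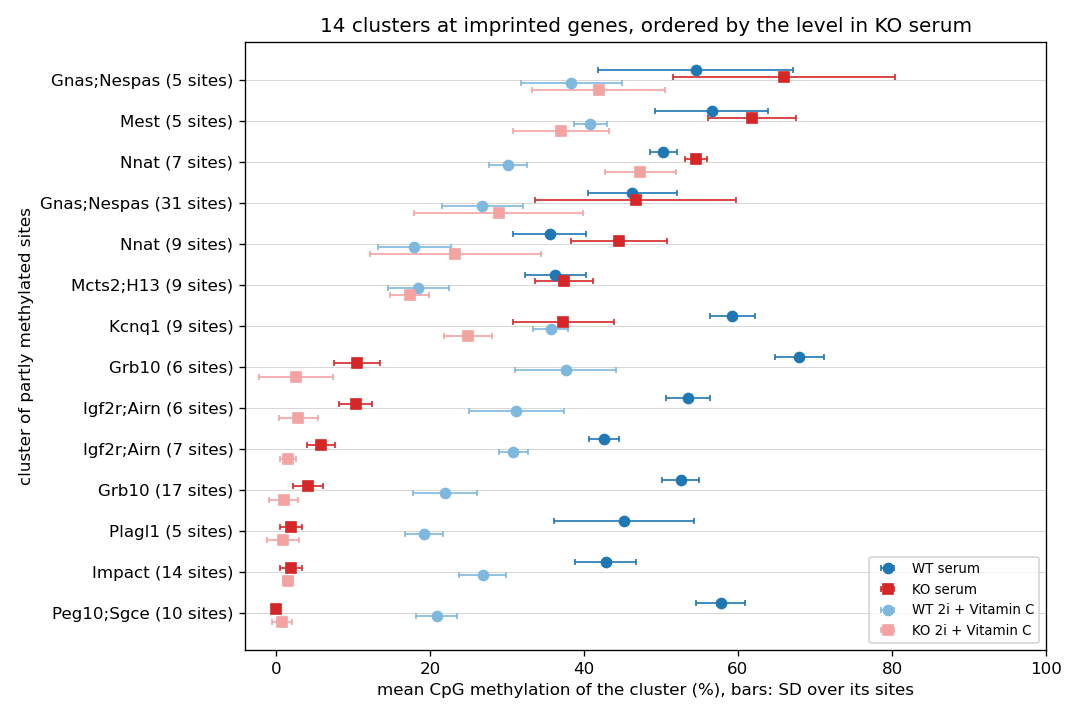
Mean methylation (%) of the 14 clusters at genes of the imprinted list in the 4 libraries, with bars for the SD over sites. The lower 7 clusters lie at 0.0% to 10.6% in KO serum and at most 2.88% in KO 2i + Vitamin C, while the upper 7 lie at 17.4% or more in all libraries.

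Of the 22 clusters with a KO serum mean under 30%, 15 lay away from the imprinted list, and 4 of the 22 had at least 50% of their sites in repeated 31-base sequence. Zfp787, a zinc finger protein gene, held 26 sites in an exon at chr7:6084028-6084499, at means of 47.4% in WT serum, 18.7% in KO serum, 18.6% in WT 2i + Vitamin C and 3.72% in KO 2i + Vitamin C. The KO level was lower at 26 of 26 sites in 2i + Vitamin C, though no site passed 20 points and the adjusted p together. Levels in WT 2i + Vitamin C ran from 8.82% to 22.5%, and a site under 20% cannot fall by 20 points. Every site from chr7:6084195 to chr7:6084498 passed the adjusted p alone, with differences, KO minus WT, from -18.7 to -12.9 points. The site at chr7:6084383 had 21.3% of 263 reads in WT and 2.62% of 305 reads in KO cells (adjusted p = 5.08e-10, Fisher's exact test, adjusted by Benjamini-Hochberg). The sites before chr7:6084195 did not pass, and all of them but chr7:6084184 had only 22 or 23 KO reads.

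Zfp777, a KRAB zinc finger gene, had 15 sites at 40.9%, 3.10%, 15.2% and 2.96%, and 1 was called lower in KO 2i + Vitamin C. The 22 sites in an exon of AI854703 had means of 41.7%, 14.7%, 10.3% and 1.63%. At the promoter of Sfi1, which encodes a centrin-binding protein, 16 sites had 39.0%, 2.10%, 6.71% and 1.14%. Other clusters of the 22 were higher in KO 2i + Vitamin C, among them Cntn4, described below, and 9 sites at the promoter of a U1 gene, with 9.91% in WT and 14.8% in KO 2i + Vitamin C.

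**Figure D5:**
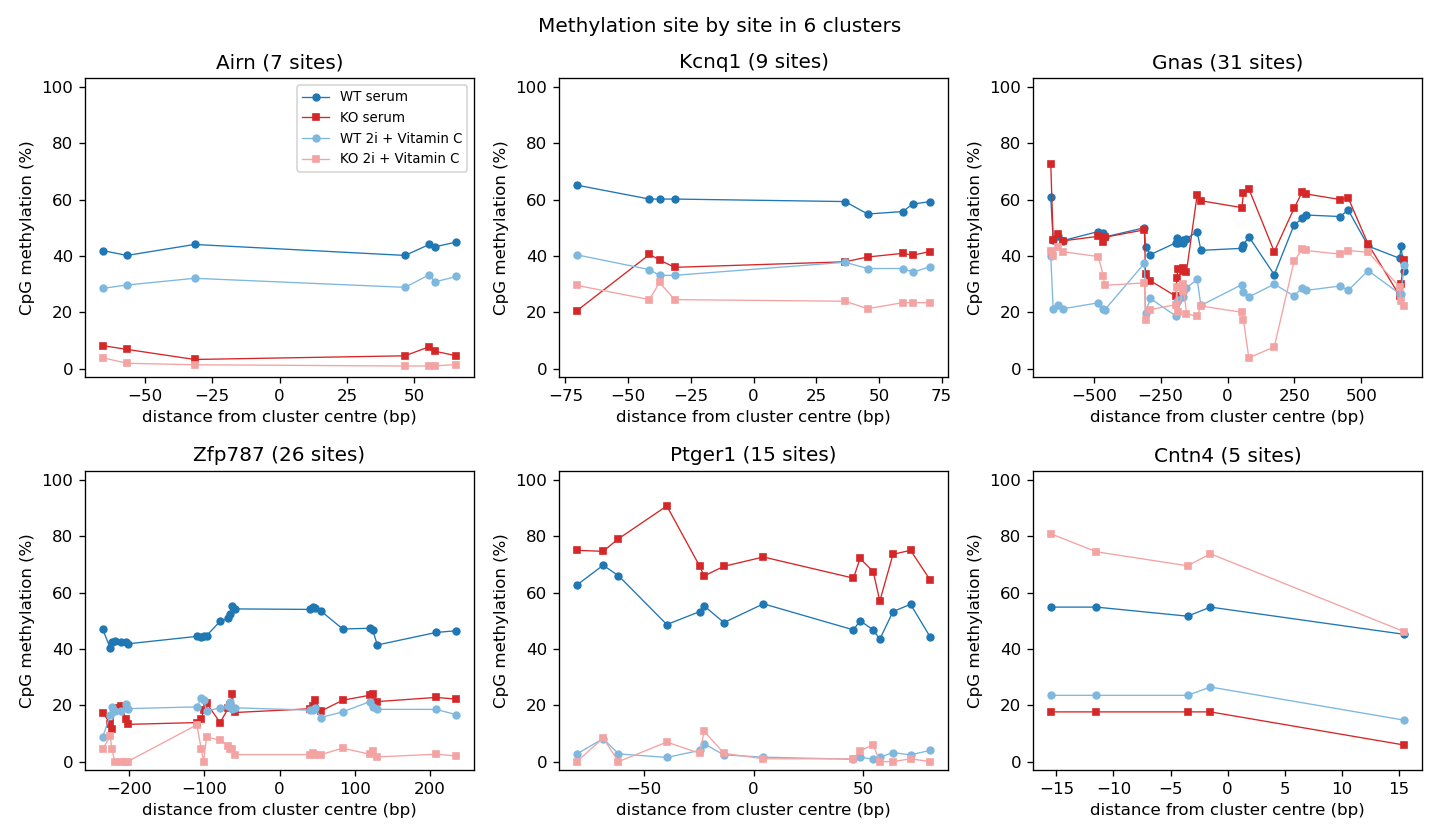
Methylation (%) of each partly methylated site against its distance (bp) from the cluster centre, 1 panel per cluster and 1 line per library. At Airn both KO lines lie under both WT lines at all 7 sites, at Ptger1 both 2i + Vitamin C lines lie near 0, and at Cntn4 KO 2i + Vitamin C is highest at all 5 sites.

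Among the 10 clusters with most sites, an intergenic one of 17 sites on chromosome 5 from 62704987, 16 of them in repeated 31-base sequence, had means of 45.1% in WT serum, 74.8% in KO serum, 25.97% in WT 2i + Vitamin C and 22.2% in KO 2i + Vitamin C. Arid5b, which encodes a DNA-binding protein, had 17 sites at means of 44.4%, 83.3%, 16.5% and 13.4%, and all 17 were called lower in 2i + Vitamin C than in serum in KO cells. Spsb4, which encodes an adaptor of a ubiquitin ligase, had 15 sites at 50.6%, 77%, 13.3% and 12.9%, all 15 called. Ptger1, the prostaglandin E receptor gene shown above, had 15 sites in an exon. They ran from 43.4% to 69.7% in WT serum, from 57.0% to 90.7% in KO serum, from 0.800% to 8.15% in WT 2i + Vitamin C and from 0% to 10.8% in KO 2i + Vitamin C, where 5 sites had 0 methylated of 23 to 102 reads, which allows up to 13% at the shallowest. All 15 were called lower in KO 2i + Vitamin C than in KO serum, and the KO ranges of the 2 media did not overlap. Of all partly methylated sites, 91.2% were called lower between these media in KO cells, as were 29.6% of all sites. The counts at Arid5b, Spsb4 and Ptger1 are thus near the share of the partly methylated sites.

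The largest falls in KO cells, from 90.9% to 1.0%, were at 5 sites in an intron of 0610040J01Rik, at 6 sites in an exon of Igsf3 (87.4% to 1.96%), and at 5 sites at the promoter of Gm9826 (85.3% to 1.61%). Similar falls were seen at Mmgt2 (85.6% to 2.78%), at 5 intergenic sites on chromosome 3 (85.7% to 2.99%) and at the promoter of Itgad, an integrin gene (86.7% to 4.61%). The smallest falls, or rises, lay at Cntn4, Mageb18, an intergenic cluster on chromosome 12, a U1 gene, Peg10 and Zfp777, of which Peg10 and Zfp777 were already at 0.0% and 3.10% in KO serum.

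The largest rise from WT to KO in 2i + Vitamin C was in an intron of Cntn4, an axonal cell adhesion gene, at 5 sites at chr6:105648591-105648623. Their means were 52.3% in WT serum, 15.3% in KO serum, 22.4% in WT 2i + Vitamin C and 68.9% in KO 2i + Vitamin C. Every site had 31, 17, 34 and 141 reads in that order, and 4 of the 5 were called higher in KO 2i + Vitamin C (adjusted p from 2.61e-07 to 0.000313, Fisher's exact test, adjusted by Benjamini-Hochberg). All 5 sat in 31-base sequence that occurs more than once in mm9. The other 5 of the 6 largest rises, of 24.7 to 33.7 points, lay at Mageb18 and in intergenic sequence on chromosomes 2, 4 and 6, and each held 2 or more sites in such sequence. The rise on chromosome 4, at 7 sites from 56448751, was 27.8 points, and 15.9 points with at least 40 reads in WT serum and 20 in the other libraries.

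Of the 98 sites called higher in KO 2i + Vitamin C, 71 sat in repeated 31-base sequence and 2 at genes of the imprinted list, and of the 152 called lower, 37 and 38 did. Among the partly methylated sites in repeated sequence, 2.42% were called higher and 1.26% lower. Among all covered sites in such sequence, 0.960% were called higher and 1.56% lower. Sites whose 31-base sequence occurs over 100 times in mm9 (1404 sites) had 15.4% in WT and 19.2% in KO 2i + Vitamin C, and 3.06% of them were called higher, against 1.61% of all covered sites with such sequence. Sites whose sequence occurs once (21089 sites) had 13.3% and 11.6%, and 0.128% were called higher, against 0.0431% of all covered sites whose sequence occurs once. The part of read placement in this difference was not tested. The fourth largest fall from WT to KO 2i + Vitamin C was at 6 intergenic sites nearest to Tas2r109, 4 of them in repeated 31-base sequence, with means of 36.8% and 10.01%. The KO median there was 11.5 reads a site, and no site was called.

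Germline genes, which are silenced by methylation in somatic cells, had 54 partly methylated sites among 205 covered (26.3%). They averaged 50.9% in WT serum, 60.6% in KO serum, 12.6% in WT and 6.59% in KO 2i + Vitamin C, and 0 were called between the genotypes in 2i + Vitamin C, while 53 were called lower in 2i + Vitamin C than in serum in KO cells, where 91.2% of all partly methylated sites and 29.6% of all sites were. Slc25a31, which encodes a mitochondrial ADP/ATP carrier of the germline, had 16 of them. At its 13 sites shown above, methylation ran from 42.4% to 77.4% in KO serum and from 0% to 19.7% in KO 2i + Vitamin C, with 37 to 72 KO reads a site in 2i + Vitamin C, and the site at 0 of 37 reads allows up to 8.11%. Dazl, an RNA-binding protein of germ cells, had 14 sites at 64.0% in KO serum and 4.85% in KO 2i + Vitamin C.

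Clustered protocadherins had 34 of 264 covered sites (12.9%), most at Pcdha11 (15 sites), and 31 of the 34 were called lower in KO 2i + Vitamin C than in serum. Hox genes had 60 of 904 (6.64%), most at Hoxd3 (10 sites), with 56 of the 60 called lower. Both counts are near the 91.2% of all partly methylated sites. Genes of the methylation machinery had 18 of 266 (6.77%), most at Tet3, a 5-methylcytosine dioxygenase gene, whose 7 sites had 45.2% in WT serum, 79.8% in KO serum, 30.7% in WT and 27.7% in KO 2i + Vitamin C. Pluripotency genes had 8 of 256 (3.13%), most at Esrrb (4 sites), and primed or early differentiation genes 19 of 387 (4.91%), most at Pax6 (8 sites). Between the genotypes in 2i + Vitamin C, 1 Hox site was called lower and no site of the germline, protocadherin, methylation machinery, pluripotency or differentiation lists was called. Over all partly methylated sites 0.633% were called lower and 0.408% higher.

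Of single sites, the largest called fall was intergenic on chromosome 15 at 17504582, with 77.5% of 80 reads in WT 2i + Vitamin C (95% Wilson interval from 67.2 to 85.3). In KO 2i + Vitamin C it had 0 of 13 reads (upper bound 22.8). It had 33.3% of 30 reads in WT serum and 83.8% of 74 reads in KO serum. In an exon of Kat2a, a histone acetyltransferase gene, the site at chromosome 11, 100572081 had 69.2% of 260 reads in WT serum, 87.2% of 188 reads in KO serum, 73.6% of 318 reads in WT 2i + Vitamin C and 7.81% of 64 reads in KO 2i + Vitamin C (adjusted p = 3e-20, Fisher's exact test, adjusted by Benjamini-Hochberg). The other 3 of the 5 largest called falls, with differences from -73.3 to -66.4 points, had 31-base sequence that occurs more than once.

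The largest called rise was near AC157822.1 on chromosome 12 at 70462323. It had 4.55% of 88 reads in WT and 70.8% of 260 reads in KO 2i + Vitamin C (adjusted p = 1.33e-26, Fisher's exact test, adjusted by Benjamini-Hochberg), with 34.8% of 66 reads in WT serum and 1.75% of 57 reads in KO serum. Of the 5 largest called rises, by 60.0 to 66.2 points, 4 had such repeated sequence, and 2 rested on 10 reads in KO 2i + Vitamin C. Intervals and tests treat reads as independent, but reads were PCR copies without molecular identifiers, so the intervals can be too narrow. They also leave out differences between clones and between libraries.

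The threshold divided sites with nearly equal values. Just inside the lower bound, a site in an exon of Tenc1 had 30% of 320 reads in WT serum and 47.2% in KO serum, and one near Hoxa11as had 30% of 300 reads and 37.1%. Just outside it, a site in an exon of Nav1 had 29.97% of 387 reads and 52.4%, and one in Rcan2 had 29.9% of 187 reads and 64.4%. At the upper bound, sites near Pitx1 and in Elfn2 had 70% of 220 and 160 reads and 85.6% and 77.8% in KO serum, and sites near Tbr1 and in Rassf3, just outside, had 70.04% of 257 reads each and 89.6% and 80.8%.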

How the data were processed

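RRBS-seq gave CpG methylation for 4 libraries. DNA was cut with MspI, bisulfite-converted and sequenced as paired-end reads. Before deposit the authors used Trim Galore for trimming, Bismark for alignment to mm9 and a script of their own to merge both strands of each CpG. The tool versions are not given in the sources used here. The deposited tables hold for each CpG counts of total and of methylated reads plus their quotient, a fraction, with no normalization for depth. The counts were used throughout, and the fraction only to check them. Positions a table lists repeatedly were dropped, 332 rows in WT serum and 830 in KO 2i + Vitamin C.

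Tables were joined on position, keeping sites with at least 20 reads in WT serum and 10 in the others. Methylated and unmethylated reads of 2 libraries were compared by a two-sided Fisher's exact test, adjusted by Benjamini-Hochberg over all 337978 sites. A site was called at an adjusted p under 0.05 and a difference of at least 20 points. No contrast with WT serum was tested as a result, because its fraction chose the sites. Means and shares over sites have no test. On simulated data, 139 of 200 sites lowered by 50 points were called between the genotypes in 2i + Vitamin C and 122 of 200 between the media in KO cells, out of 337978 simulated sites, with 0 unchanged sites called. Only sites methylated enough for such a fall were lowered. In 2i + Vitamin C 91.8% (WT) and 91.6% (KO) of the partly methylated sites lay under 30%, so the genotype count does not apply to most of them. Simulated reads were independent, and unchanged sites had equal rates in both libraries. The simulation therefore cannot give the rate of false calls from PCR copies, clones or libraries. Genes came from the mm9 annotation (GENCODE) with promoters within 1000 bp of a transcript start. Gene lists covered the gene and 5 kb around it.

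The sites, gene lists and tests were chosen with earlier results of these data known. Clusters named are the 10 with most sites, the 6 with the largest fall and rise between the genotypes in 2i + Vitamin C, the 6 with the largest and smallest fall between the media in KO cells, and those at genes of the lists. Single sites named are the 5 largest called falls and rises between the genotypes and the 2 nearest each threshold. Alternatives were higher coverage, a narrower band, sites outside CCGG, autosomes only, 1 site per 1 kb chain, other call rules, pooled reads, other cluster gaps and a narrower promoter. The alternative on soft-masked sites was not run, because the genome used here marks none. In its place, chosen after seeing the data, sites whose surrounding 31 bases occur more than once were left out, as were sites at the imprinted list. The tools were numba 0.67.0, scipy 1.17.1, matplotlib 3.10.9, pandas 2.3.3, pysam 0.24.0 and numpy 2.4.6 under Python 3.11.15.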

Additional observations from a re-analysis of the deposited data

Results flagged for a closer look

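The difference between the genotypes had opposite signs in the 2 media. Over the partly methylated sites the mean, KO minus WT, was 14.4 points in serum and -1.17 points in 2i + Vitamin C. The signs were the same over all sites (3.07 and -1.75 points), over sites under 0.3 in WT serum (2.22 and -0.948 points) and over sites over 0.7 (2.13 and -4.26 points). The serum value rests on the library that chose the sites, and the difference between the media was not tested.

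Among the named clusters, 2 had differences of at least 20 points with opposite signs. The 5 intergenic sites on chromosome 2 near Srsf6, which encodes a splicing factor, had a difference of 25.6 points in serum and -23.0 points in 2i + Vitamin C. Their means were 60.0% and 85.6% in WT and KO serum, and 32.4% and 9.40% in WT and KO 2i + Vitamin C, where the difference was -16.2 points with WT serum methylation from 0.4 to 0.6 and -18.5 points without sites in CCGG. The 5 sites in an intron of Cntn4 on chromosome 6 had -37.0 points in serum and 46.6 points in 2i + Vitamin C. Both clusters have 3 or more sites in 31-base sequence that occurs more than once in mm9, whose part in the result was not tested, and neither difference between the media was tested. With 1 library a condition, the genotype and the library cannot be told apart in either medium.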

How the results depend on the processing

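No paired analysis was possible because each condition has 1 library, so the groups share 1 replicate number and none could be left out. None of the settings below changed the direction of the mean difference over all the partly methylated sites. With at least 40 reads in WT serum and 20 in the others, 12826 sites were lower and 8 higher in KO cells between the media, 54 were higher in KO 2i + Vitamin C, the mean genotype difference there was -1.38 points, 18.6% of sites lay in promoters and 28.6% between genes, and 463 clusters were counted. From 0.4 to 0.6 the calls were 77 lower and 50 higher between the genotypes and 10373 lower and 12 higher between the media, with a mean genotype difference of -1.07 points and 220 clusters. Outside CCGG the mean differences were -1.52 (genotypes) and -54.2 points (media), with 18.4% in promoters and 483 clusters, and on autosomes the media differed by -53.7 points. With 1 site per 1 kb chain, calls were 58 and 38 between the genotypes and 10094 and 8 between the media, means -1.29 and -54.0 points, and shares 16.3% (promoters) and 33.7% (intergenic). These settings hold fewer sites.

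With no minimum difference, 302 sites were lower and 150 higher between the genotypes. With no test, 543 were lower and 453 higher, and 38 higher between the media. Pooled reads gave mean differences of -0.847 and -51.3 points. Promoters of 500 bp on each side held 11.7% of sites and left 31.4% intergenic. Without repeated 31-base sequence, 113 sites were lower and 27 higher between the genotypes and 5 were higher between the media, means were -1.67 and -54.5 points, and 18.8% lay in promoters and 25.9% between genes. For the 31 named clusters, 106 values came from the higher coverage, the 0.4 to 0.6 band, sites outside CCGG and sites outside repeated sequence. A turned direction was counted only where the reported difference was 20 points or more, and 0 turned. Clusters with smaller differences could not count. Of the 106, 8 moved by over the SD over sites in KO 2i + Vitamin C. Small differences between the genotypes did change sign, from -3.78 to 0.523 points on chromosome 5 from 62704987 (0.4 to 0.6), from -0.434 to 0.297 points at Spsb4 (outside CCGG) and from 0.0597 to -0.324 points at Ptger1 (higher coverage, and outside CCGG). The chromosome 5 difference was -48.5 points at the 1 site outside repeated sequence. At the median depth of 43 reads in KO 2i + Vitamin C, small differences at single sites were not detectable.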
